A study of Mus musculus with 6 samples.

Results

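The comparison set 1 library of brain nuclei from P301S tau mice with human APOE4, TAFE4_oil, against 1 library from P301S tau mice with human APOE3, TAFE3_oil. Its members were the nuclei of these libraries with at least 500 unique molecular identifiers (UMIs, each standing for 1 captured RNA molecule), at least 300 genes and at most 5% of UMIs from mitochondrially encoded genes. The filter left 24677 nuclei, and 22892 of them remained once likely doublets were removed, 12343 from TAFE4_oil and 10549 from TAFE3_oil, of 70327 in all 6 libraries. The genotypes are labelled P301S APOE4 fl/fl Aldh1la1CreERT and P301S APOE3/fl/fl Aldh1la1CreERT. Both groups were B6 mice of 9 months, both carried the P301S tau transgene, a floxed human APOE gene and the inducible Cre, and both received oil, the carrier without tamoxifen. Neither the promoter of the tau transgene nor the number of mice pooled for a library is given in the sources used here. The other 4 libraries, also from 9-month B6 mice, served as values beside. FE4 and FE3 came from mice with the floxed APOE4 or APOE3 gene and no tau transgene, and TAFE4_tam and TAFE3_tam from tau mice of the same 2 genotypes given tamoxifen. The sample titles name the hippocampus, the tissue label says brain, and the protocol describes the left hemisphere.

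APOE is the main lipid carrier made inside the brain, where astrocytes are its chief source and microglia make more of it when they respond to injury. APOE4 is the strongest common inherited risk factor for late-onset Alzheimer's disease, and APOE3 is the common form. P301S is a change in the microtubule-binding protein tau that makes it aggregate, and mice with this transgene develop tau tangles, gliosis and loss of hippocampal neurons. Microglia in such brains take on a disease-associated state, in which homeostatic genes such as P2ry12 and Tmem119 are turned down and genes for lysosomes, lipid handling and phagocytosis, such as Apoe, Trem2 and Cst7, are turned up.

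With 1 library a side there was no replicate, so no test was made, and each interval covers counting error only. Genotype, animal, dissection and library preparation cannot be told apart. TAFE3_oil held 14885 barcodes and 39599801 UMIs, and TAFE4_oil held 16467 barcodes and 46995438 UMIs. Nuclei used had a median of 2428 UMIs and 1269 genes in TAFE3_oil and of 2608 UMIs and 1401 genes in TAFE4_oil. The share of barcodes over the mitochondrial limit was 21.9% in TAFE3_oil and 20.8% in TAFE4_oil. The other pairs were less alike, with 30.2% in FE3 and 8.99% in FE4, and 26.7% in TAFE3_tam and 11.3% in TAFE4_tam. What part this had in the ratios of those pairs was not tested. TAFE3_oil and TAFE4_oil had 70 barcodes in common, 35 of them among the nuclei used. In all that follows, the level of a gene is its UMIs summed over the nuclei of a class, scaled as counts per 1e6 UMIs of that class (CPM), and the log2 ratio is TAFE4_oil over TAFE3_oil with its 95% interval. A gene was counted in a class when the 2 libraries together held 50 or more of its UMIs there, and 2-fold means a log2 ratio of at least 1 in either direction.

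Human APOE was read first, because it is the gene that defines the groups. The counts do not separate the APOE3 from the APOE4 form, human MAPT is not among the feature names, and mouse Apoe and human APOE share enough sequence that reads could have been split between them, so both levels are uncertain. In microglia the APOE level was 16444 CPM in TAFE3_oil and 22571 CPM in TAFE4_oil (log2 ratio 0.46, interval 0.43 to 0.48). In astrocytes it was 15994 CPM in TAFE3_oil and 18042 CPM in TAFE4_oil (0.17, 0.14 to 0.21). Oligodendrocytes held 4180 CPM in TAFE3_oil and 6192 CPM in TAFE4_oil (0.57, 0.51 to 0.63). The level was higher in TAFE4_oil in all 9 main classes, by 0.17 in astrocytes to 0.66 in CA2 or CA3 neurons, where it was 663 CPM in TAFE3_oil and 1050 CPM in TAFE4_oil. Mouse Apoe was likewise higher in all 9 classes, with 1832 CPM in TAFE3_oil and 3106 CPM in TAFE4_oil in microglia (0.76, 0.69 to 0.84). Its log2 ratio ranged from 0.28 in astrocytes to 0.85 in CA2 or CA3 neurons. The libraries without tau ran the other way: APOE was lower in FE4 than in FE3 in all 9 classes, by log2 ratios of -0.28 to -1.0. In the tamoxifen libraries it was higher in TAFE4_tam than in TAFE3_tam by 0.01 to 0.28. Droplet libraries also carry free RNA, and what part of the APOE counted in neurons came from it was not tested.

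**Figure D1:**
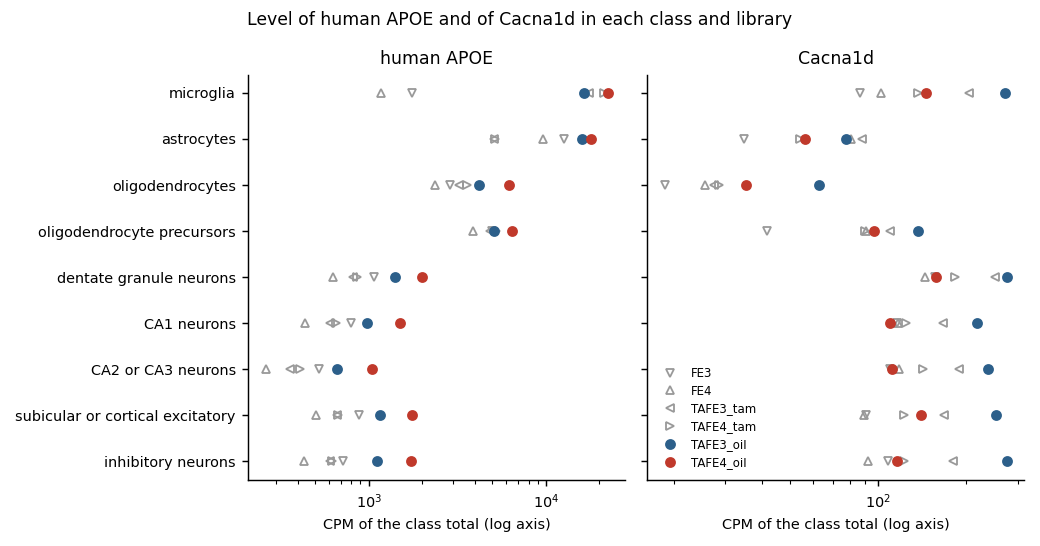
Level of human APOE (left) and of Cacna1d (right) in CPM on log axes for each of the 9 main classes, with TAFE3_oil in blue, TAFE4_oil in red and the other 4 libraries as grey triangles. APOE lies higher in TAFE4_oil than in TAFE3_oil in every class, with 16444 and 22571 CPM in microglia, and Cacna1d lies lower in every class, with 276 CPM in TAFE3_oil and 116 CPM in TAFE4_oil in inhibitory neurons.

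The make-up of the nuclei differed in every main class of neurons. Excitatory neurons with subicular or cortical markers (such as Cux2, Rorb, Foxp2 and Tshz2) were 33.2% of nuclei in TAFE3_oil and 40.0% in TAFE4_oil (log2 ratio of shares 0.27, 0.21 to 0.33). Those of the upper-layer type with Cux2 or Rorb were 18.6% in TAFE3_oil and 26.2% in TAFE4_oil (0.50, 0.41 to 0.58). Inhibitory neurons were 10.5% in TAFE3_oil and 13.5% in TAFE4_oil (0.36, 0.25 to 0.47). The 3 classes that belong to the hippocampus itself were scarcer in TAFE4_oil. CA1 neurons were 5.21% of nuclei in TAFE3_oil and 2.47% in TAFE4_oil (-1.08, -1.28 to -0.87). CA2 or CA3 neurons were 2.79% in TAFE3_oil and 1.79% in TAFE4_oil (-0.64, -0.90 to -0.38), and dentate granule neurons 6.95% in TAFE3_oil and 5.06% in TAFE4_oil (-0.46, -0.62 to -0.30). Together these 3 classes were 14.9% of nuclei in TAFE3_oil and 9.32% in TAFE4_oil, against 48.0% in FE3 and 40.4% in FE4. Excitatory neurons with subicular or cortical markers thus outnumbered those of the hippocampus proper in both oil libraries, although the titles name the hippocampus. Among the 3 classes taken alone, granule neurons were 46.5% in TAFE3_oil and 54.3% in TAFE4_oil, CA1 neurons 34.9% and 26.5%, and CA2 or CA3 neurons 18.6% and 19.2%. The CA1 ratio was -0.63 when the 2 libraries were clustered without the other 4. That clustering gave no value for CA2 or CA3 neurons, so its CA1 class may not hold the same nuclei. In the pairs with no shared library, the log2 ratio for CA1 neurons was -0.30 without tau and -0.24 with tamoxifen.

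Other populations also differed in number. Choroid plexus epithelial cells, which make cerebrospinal fluid, numbered 110 nuclei in TAFE3_oil and 13 in TAFE4_oil (-3.31, -4.26 to -2.47). A cluster of subicular or cortical excitatory neurons whose leading genes were the striatal genes Rgs9, Tac1, Penk, Drd1a and Adora2a held 199 nuclei in TAFE3_oil and 13 in TAFE4_oil. An unnamed cluster led by Zic1 and Prkcd held 101 nuclei in TAFE3_oil and 284 in TAFE4_oil, and an unnamed cluster rich in haemoglobin transcripts held 508 in TAFE3_oil and 183 in TAFE4_oil. What these values contribute to the shares of neurons was not tested.

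Glial shares were closer. Microglia were 8.99% of nuclei in TAFE3_oil and 9.46% in TAFE4_oil (0.07, -0.05 to 0.20), an interval that includes 0. Oligodendrocytes were 7.0% in TAFE3_oil and 6.94% in TAFE4_oil, and oligodendrocyte precursors 2.71% and 2.65%. Astrocytes were 3.35% in TAFE3_oil and 2.61% in TAFE4_oil (-0.36, -0.58 to -0.14). The astrocyte share depended on the mitochondrial limit, which removed 41.2% of their nuclei in TAFE3_oil and 52.4% in TAFE4_oil: the log2 ratio was -0.00 with no limit and -1.38 with a limit of 1%. For microglia the ratio was 0.73 when nuclei needed at least 1000 UMIs, where the main setting gave 0.07.

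**Figure D2:**
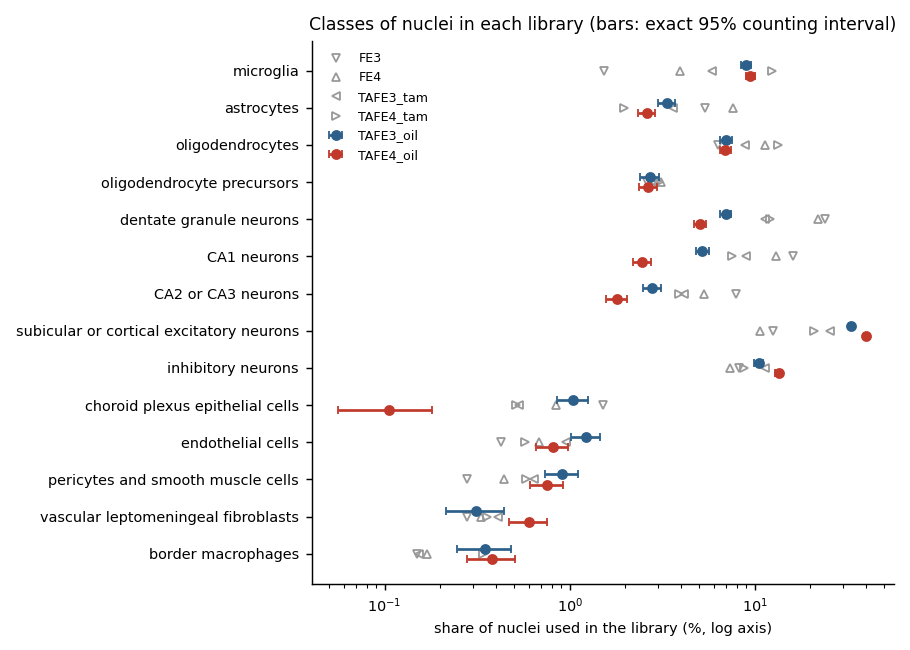
Share of nuclei in each class of each library (percent, log axis), with TAFE3_oil in blue and TAFE4_oil in red with exact 95% counting intervals and the other 4 libraries as grey triangles. CA1 neurons (5.21% and 2.47%) and choroid plexus epithelial cells lie lower in TAFE4_oil, subicular or cortical excitatory neurons (33.2% and 40.0%) lie higher, and microglia (8.99% and 9.46%) nearly coincide.

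Microglia, the brain's resident macrophages, had lower levels of most of their own genes in TAFE4_oil, while Apoe and APOE were higher. Of 8327 genes counted, 62 (0.745%) were at least 2-fold higher and 19 (0.228%) at least 2-fold lower, and 55.9% were higher by any size. Of the 891 genes at least 2-fold enriched in microglia over all other nuclei, 180 (20.2%) were higher and 711 lower, with a median log2 ratio of -0.22, beside 0.04 for all genes. Among these 891, 2 (0.224%) were at least 2-fold higher and 7 (0.786%) at least 2-fold lower, the reverse of the order over all genes. The homeostatic list had 3 of 42 counted members higher, with a median of -0.30. Cst3, a secreted protease inhibitor and one of the most abundant microglial transcripts, was at 5657 CPM in TAFE3_oil and 4835 CPM in TAFE4_oil (-0.23, -0.27 to -0.18). The fractalkine receptor Cx3cr1 was at 487 CPM in TAFE3_oil and 378 CPM in TAFE4_oil. Selplg, the P-selectin ligand, was among the 5 lowest named genes, at 159 CPM in TAFE3_oil and 94.6 CPM in TAFE4_oil (-0.75, -1.07 to -0.43).

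The disease-associated list had 13 of 48 counted members higher (beside 20.2% of all microglia-enriched genes), with a median of -0.17, and 2 members past 2-fold, 1 in each direction. Trem2, the lipid-sensing receptor on which this state depends, was at 876 CPM in TAFE3_oil and 759 CPM in TAFE4_oil (-0.21, -0.33 to -0.08). The tetraspanin Cd9 was at 978 CPM in TAFE3_oil and 762 CPM in TAFE4_oil, and the lysosomal protease Ctsd at 3398 CPM and 3223 CPM. Cst7, an inhibitor of lysosomal proteases, was at 66.9 CPM in TAFE3_oil and 40.9 CPM in TAFE4_oil (-0.71, -1.21 to -0.21). Itgax, an integrin often used as a marker of the state, was at 87.4 CPM in TAFE3_oil and 87.9 CPM in TAFE4_oil (0.01, -0.38 to 0.40). The members past 2-fold were Gpnmb, a lysosomal membrane glycoprotein, at 13.9 CPM in TAFE3_oil and 39.1 CPM in TAFE4_oil (1.49, 0.66 to 2.40), and the chemokine Ccl6, at 46.5 CPM and 20.1 CPM (-1.21, -1.89 to -0.54). Apoe and APOE are also members of this list.

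The interferon response list, which holds genes induced by type I interferon, had 6 of 27 counted members higher, a share near the 20.2% of microglia-enriched genes, with a median of -0.39 beside -0.22 for those genes. Stat2, a transcription factor of the interferon signal, was at 60.4 CPM in TAFE3_oil and 34.2 CPM in TAFE4_oil (-0.82, -1.36 to -0.28). Ifit1, an RNA-binding effector, was past 2-fold, at 38.1 CPM in TAFE3_oil and 12.8 CPM in TAFE4_oil (-1.57, -2.40 to -0.78). Ccl12, a monocyte chemokine, was the lowest of the named genes in microglia, at 110 CPM in TAFE3_oil and 48.2 CPM in TAFE4_oil (-1.19, -1.62 to -0.76). The tamoxifen pair ran the other way, with a list median of 0.73 and 93.7 CPM of Ccl12 in TAFE3_tam against 216 CPM in TAFE4_tam. MHC class I genes had 2 of 21 members higher (median -0.27), with H2-D1 at 1172 CPM in TAFE3_oil and 1033 CPM in TAFE4_oil. MHC class II genes had 2 of 9 higher (-0.31) and complement genes 3 of 12 (-0.30), with the C1q subunit C1qa at 2963 CPM in TAFE3_oil and 2534 CPM in TAFE4_oil (-0.23, -0.29 to -0.16). Lysosome and phagocytosis genes had 11 of 44 higher (-0.14). Complement, MHC class II and lysosome genes were thus higher about as often as microglia-enriched genes in general.

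Lipid transport and storage genes had 18 of 31 counted members higher and a median of 0.10, beside 55.9% of all genes and 20.2% of microglia-enriched genes. The cholesterol exporter Abcg1 was at 47.4 CPM in TAFE3_oil and 80.0 CPM in TAFE4_oil (0.75, 0.28 to 1.25). Its relative Abca1 was at 160 CPM in TAFE3_oil and 189 CPM in TAFE4_oil (0.24, -0.03 to 0.52), an interval that includes 0. Npc2, which hands cholesterol out of the lysosome, was lower, at 241 CPM in TAFE3_oil and 173 CPM in TAFE4_oil (-0.47, -0.72 to -0.23). Among the named genes, Lman2, a cargo receptor of the secretory pathway, was at 25.1 CPM in TAFE3_oil and 53.7 CPM in TAFE4_oil (1.10, 0.46 to 1.78). Hcfc1r1 (0.84) and the ATP synthase subunit Atp5j2 (0.67) were also higher. Otulin, a deubiquitinase that restrains inflammatory signalling, was at 109 CPM in TAFE3_oil and 58.0 CPM in TAFE4_oil (-0.91, -1.31 to -0.50), and the transcriptional co-repressor Ski at 110 CPM and 54.3 CPM (-1.01, -1.43 to -0.60).

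Neuronal transcripts moved with these values. The 19 neuronal genes used as markers in glia, none of them at 0, summed to 22714 CPM in the microglia of TAFE3_oil and 26251 CPM in those of TAFE4_oil, and 17 of the 19 were higher (median 0.27). Within the class, a cluster led by the neuronal genes Grin2a and Kcnip4, with a median of 3251 UMIs and a doublet score of 0.25, held 9.39% of microglia in TAFE3_oil and 14.5% in TAFE4_oil. Without this cluster and a Cxcl10 cluster that held no nucleus of either library, the neuronal list had a median of 0.00. The disease-associated list then had 21 of 47 members higher (median -0.02), the lysosome list 22 of 44 (-0.00) and MHC class II 5 of 9 (0.02). Homeostatic genes had 9 of 40 higher (-0.18), interferon genes 5 of 20 (-0.27) and MHC class I genes 3 of 20 (-0.13), and lipid transport had 21 of 28 higher (0.23). Of all 6280 genes counted in these nuclei, 3498 were higher (median 0.05). The 20.2% of microglia-enriched genes given above is for all microglia, with the neuron-rich cluster included. In the same nuclei Apoe was at 2361 CPM in TAFE3_oil and 4497 CPM in TAFE4_oil (0.93, 0.85 to 1.01). How doublets were treated bore on the disease-associated list, whose median was 0.03 with doublets kept and -0.00 when the top expected share was removed from every library. A small cluster led by P2ry12, Selplg and Tmem119 held 49 microglia in TAFE3_oil (5.17%) and 13 in TAFE4_oil (1.11%). Without it the homeostatic list had 6 of 40 members higher (median -0.24), beside 4637 of all 8240 genes (0.04). Selplg was then at 148 CPM in TAFE3_oil and 90.3 CPM in TAFE4_oil (-0.71, -1.05 to -0.37).

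**Figure D3:**
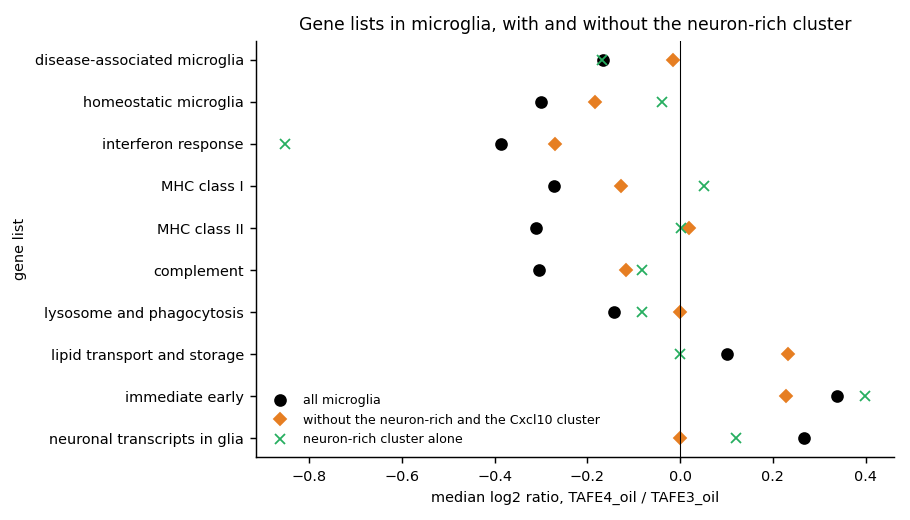
Median log2 ratio of TAFE4_oil over TAFE3_oil for 10 gene lists in microglia, in all microglia (black), without the neuron-rich and Cxcl10 clusters (orange) and in the neuron-rich cluster alone (green). Leaving out the neuron-rich cluster brings the disease-associated list from -0.17 to -0.02, while the homeostatic (-0.18) and interferon (-0.27) lists stay below 0 and lipid transport (0.23) lies above it.

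Astrocytes, which feed and buffer neurons and react to injury by raising intermediate filaments, had lower levels of most reactive genes in TAFE4_oil. Of 5553 genes counted, 29 (0.522%) were at least 2-fold higher, 12 (0.216%) at least 2-fold lower, and 64.3% higher by any size. The 2-fold counts depended on the scaling: with TMM, which centres the ratios of most genes on 0, they were 14 higher and 26 lower. The reactive list had 5 of 24 counted members higher, with a median of -0.31. The filament gene Gfap was at 1805 CPM in TAFE3_oil and 1374 CPM in TAFE4_oil (-0.39, -0.51 to -0.28). Vim, a second filament gene, was at 587 CPM in TAFE3_oil and 358 CPM in TAFE4_oil (-0.71, -0.93 to -0.50). The acute-phase inhibitor Serpina3n was at 102 CPM in TAFE3_oil and 58.8 CPM in TAFE4_oil (-0.80, -1.35 to -0.26), and Ggta1, a glycosyltransferase, was the member past 2-fold, at 64.4 CPM and 28.8 CPM (-1.16, -1.95 to -0.42). B2m, the light chain of MHC class I, was one of the 5 that were higher, at 101 CPM in TAFE3_oil and 144 CPM in TAFE4_oil (0.51, 0.09 to 0.94). This list depended on the mitochondrial limit, with a median of 0.02 when there was no limit and -1.99 at 1%. It lay below 0 in the other pairs as well, at -0.22 in FE4 against FE3 and -0.19 in TAFE4_tam against TAFE3_tam. In the 2 largest astrocyte clusters combined, without the nuclei that carried many neuronal or other glial transcripts, 3 of 20 reactive members were higher (-0.36), and Gfap was at 2007 CPM in TAFE3_oil and 1491 CPM in TAFE4_oil (-0.43, -0.55 to -0.31). Of all 4553 genes counted in these nuclei, 2838 were higher (median 0.09).

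Genes of resting astrocytes were close to level, with 19 of 34 homeostatic members higher and a median of 0.04, beside 55.8% of the genes enriched in astrocytes. The glutamate transporter Slc1a2 was at 6526 CPM in TAFE3_oil and 6842 CPM in TAFE4_oil (0.07, 0.01 to 0.12). Cholesterol synthesis genes, which make the lipid that APOE carries, had 8 of 16 members higher (median 0.05), and lipid transport genes 13 of 19 (0.16). Interferon genes had 0 of 7 members higher (-0.40). The genes named highest were Ptgds, a prostaglandin synthase that also marks the meninges, at 1430 CPM in TAFE3_oil and 2439 CPM in TAFE4_oil (0.77, 0.66 to 0.88), and the Notch target Hes5, at 171 CPM and 307 CPM (0.84, 0.53 to 1.15). Beside Ptgds, vascular leptomeningeal fibroblasts numbered 33 nuclei in TAFE3_oil and 74 in TAFE4_oil, and the part of their RNA in the astrocyte value was not tested. The Notch ligand Dner (0.87), the ubiquitin-conjugating enzyme Ube2d3 (0.84) and Commd3 (0.85) followed. Besides Vim, the lowest named genes were the actin-severing protein Gsn, at 297 CPM in TAFE3_oil and 163 CPM in TAFE4_oil (-0.86, -1.18 to -0.54), the calcium-binding protein S100a6 (-0.69), the phosphodiesterase Pde8b (-0.91) and the lyase Etnppl (-0.76). Neuronal transcripts summed to 11177 CPM in the astrocytes of TAFE3_oil and 11908 CPM in those of TAFE4_oil.

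Oligodendrocytes, the myelin-forming cells, had higher levels of most of their counted reactive genes. Of 6300 genes counted, 28 (0.444%) were at least 2-fold higher, 11 (0.175%) at least 2-fold lower (20 and 13 with TMM), and 58.7% higher by any size. The reactive list had 14 of 19 counted members higher, with a median of 0.22. The complement gene C4b was at 803 CPM in TAFE3_oil and 1090 CPM in TAFE4_oil (0.44, 0.30 to 0.58), and it was also higher in FE4 than in FE3 (0.68) and in TAFE4_tam than in TAFE3_tam (0.72). The MHC class I gene H2-D1 was at 328 CPM in TAFE3_oil and 454 CPM in TAFE4_oil (0.47, 0.26 to 0.69). Klk6, a secreted protease, was past 2-fold lower, at 73.2 CPM in TAFE3_oil and 25.8 CPM in TAFE4_oil (-1.51, -2.21 to -0.83). Myelin genes had 11 of 31 members higher (median -0.06), beside 52.5% of the genes enriched in oligodendrocytes, with Mal lower (-0.34, -0.50 to -0.17). A cluster led by Sgk1 and C1ql3 held 96 of the nuclei in TAFE3_oil (13%) and 21 in TAFE4_oil (2.45%). Without it, 14 of 18 reactive members were higher (0.15), beside 3512 of all 5999 genes (0.06). C4b was then at 871 CPM in TAFE3_oil and 1110 CPM in TAFE4_oil (0.35, 0.21 to 0.49).

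Among other genes named in oligodendrocytes, the trafficking adaptor Tom1l2 was at 30.2 CPM in TAFE3_oil and 71.5 CPM in TAFE4_oil (1.24, 0.58 to 1.95). The ubiquitin-ligase subunit Fbxo2 was at 34.8 CPM in TAFE3_oil and 71.5 CPM in TAFE4_oil (1.04, 0.41 to 1.70), and Smdt1, a regulator of the mitochondrial calcium uniporter, was higher by 0.84. On the low side stood the inositol phosphate kinase Itpk1, at 102 CPM in TAFE3_oil and 55.3 CPM in TAFE4_oil (-0.89, -1.39 to -0.39), with Lrp1b (-0.49), Anln (-0.59), Cpox (-0.59) and Creg1 (-0.83). Oligodendrocyte precursors had 26 of 3703 genes (0.702%) at least 2-fold higher and 5 (0.135%) at least 2-fold lower (21 and 10 with TMM), with 59.7% higher by any size. Their highest named gene was the metalloprotease inhibitor Timp2, at 62.4 CPM in TAFE3_oil and 153 CPM in TAFE4_oil (1.30, 0.64 to 1.99). Apoe (0.77), the respiratory subunits Atp5k (1.01) and Cox7b (0.94) and Nsg2 (0.90) were the others. Their lowest named gene was the matrix protein Spon1, at 223 CPM in TAFE3_oil and 88.9 CPM in TAFE4_oil (-1.33, -1.87 to -0.81). The lineage transcription factor Sox8 was at 453 CPM in TAFE3_oil and 257 CPM in TAFE4_oil (-0.82, -1.15 to -0.49), and Mmp15 (-1.06), Enpp2 (-0.68) and Gtl3 (-0.89) were lower too.

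Endothelial cells, which line the vessels, numbered 129 nuclei in TAFE3_oil and 100 in TAFE4_oil. Of 1174 genes enriched in them, 932 (79.4%) were higher in TAFE4_oil, with a median log2 ratio of 0.36, with 79 (6.73%) past 2-fold higher and 22 (1.87%) past 2-fold lower. Of all 2784 genes counted in these nuclei, 56.7% were higher, 3.09% past 2-fold higher and 2.16% past 2-fold lower. Beside these, 0 of 13 neuronal transcripts were higher in the same nuclei (median -0.61), and their part in the result was not tested.

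Immediate early genes, which excitatory activity switches on quickly, were higher in TAFE4_oil in the subicular or cortical excitatory neurons. Of 13386 genes counted there, 68 (0.508%) were at least 2-fold higher and 29 (0.217%) at least 2-fold lower. With TMM scaling the counts were 39 higher and 47 lower, and among genes with 200 or more UMIs they were 9 and 11. Since 74.4% of all genes were higher by any size, at a median of 0.13, each list must be read against that. The immediate early list had 38 of 40 counted members higher, with a median of 0.61 and 4 members past 2-fold. Nr4a1, a nuclear receptor, was at 34.6 CPM in TAFE3_oil and 69.5 CPM in TAFE4_oil (1.01, 0.83 to 1.18). Egr4, a zinc-finger factor, was at 27.5 CPM in TAFE3_oil and 54.4 CPM in TAFE4_oil (0.99, 0.79 to 1.18). Fos, the AP-1 factor most used as a marker of active neurons, was at 17.4 CPM in TAFE3_oil and 32.9 CPM in TAFE4_oil (0.92, 0.68 to 1.17). All of these were among the 5 highest named genes of the class.

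Short promoter sequences of these 3 genes are given because many immediate early genes answer to the cAMP response element, TGACGTCA, or its shorter form, TGACG, which lies within the full element. They are the 250 bases before each start in RefSeq (GRCm38.p6), for Nr4a1 at chr15:101266596-101266845 (+ strand), for Egr4 at chr6:85513590-85513839 (- strand) and for Fos at chr12:85473640-85473889 (+ strand), with capitals on TGACG or its reverse complement CGTCA.
Nr4a1: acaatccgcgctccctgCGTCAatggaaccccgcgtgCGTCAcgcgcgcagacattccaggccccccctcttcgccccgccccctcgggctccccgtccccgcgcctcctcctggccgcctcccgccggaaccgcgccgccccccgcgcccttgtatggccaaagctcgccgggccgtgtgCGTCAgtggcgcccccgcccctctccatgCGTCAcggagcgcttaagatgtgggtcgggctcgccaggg
Egr4: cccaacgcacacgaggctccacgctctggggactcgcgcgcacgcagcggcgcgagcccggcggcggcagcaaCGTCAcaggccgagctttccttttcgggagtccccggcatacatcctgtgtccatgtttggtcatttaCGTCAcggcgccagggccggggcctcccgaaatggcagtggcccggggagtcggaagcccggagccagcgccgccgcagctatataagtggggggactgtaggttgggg
Fos: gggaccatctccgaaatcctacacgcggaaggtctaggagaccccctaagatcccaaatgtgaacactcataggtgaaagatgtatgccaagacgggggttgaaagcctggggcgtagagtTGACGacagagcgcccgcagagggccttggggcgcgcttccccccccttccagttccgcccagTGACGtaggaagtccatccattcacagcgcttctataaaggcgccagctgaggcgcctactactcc
In windows of 300 bases, from 250 before to 50 after the start and read on both strands, 31 of the 42 listed genes could be matched, and TGACG was found in 21 of them (67.7%), against 21% of 27025 RefSeq promoters. The full element was found in 5 (16.1%), against 1.88%. A match describes the letters only.

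The other members past 2-fold were Fosb, at 2.70 CPM in TAFE3_oil and 7.60 CPM in TAFE4_oil (1.49, 0.90 to 2.13), Egr2, at 1.86 CPM and 4.90 CPM (1.40, 0.67 to 2.18), and Ptgs2, the inducible prostaglandin synthase, at 9.03 CPM and 19.5 CPM (1.11, 0.78 to 1.46). Arc, which regulates AMPA receptors at synapses, was at 59.5 CPM in TAFE3_oil and 100.5 CPM in TAFE4_oil (0.76, 0.62 to 0.89). Npas4 was at 34.4 CPM in TAFE3_oil and 54.7 CPM in TAFE4_oil (0.67, 0.49 to 0.85), and the growth factor Bdnf at 48.6 CPM and 69.4 CPM (0.51, 0.36 to 0.67). The most abundant member, the neuropeptide precursor Vgf, was at 198 CPM in TAFE3_oil and 260 CPM in TAFE4_oil (0.39, 0.32 to 0.47). The 2 members that were not higher were Nr4a2, at 80.5 CPM in TAFE3_oil and 65 CPM in TAFE4_oil (-0.31, -0.44 to -0.18), and the scaffold Homer1, at 179 CPM and 178 CPM (-0.01, -0.09 to 0.08). In the pairs that share no library with this one, the list had medians of 0.08 without tau and 0.07 with tamoxifen. Egr4 was lower in TAFE4_tam than in TAFE3_tam (-0.95), and Fos was higher in FE4 than in FE3 (1.14) but lower in TAFE4_tam (-0.50).

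The difference was not even across these neurons. In the largest cluster, led by Rorb, the list median was 0.73 with 26 of 27 members higher, beside 0.19 and 6908 of 9247 for all genes. Nr4a1 was at 45.4 CPM in TAFE3_oil and 120 CPM in TAFE4_oil in this cluster (1.40, 1.07 to 1.75). The upper-layer neurons as a whole had 36 of 38 members higher (0.64) and the deep-layer neurons with Foxp2 or Tle4 27 of 32 (0.35). Of all genes, 77% were higher in the upper-layer neurons (0.17) and 65.7% in the deep-layer neurons (0.09). A cluster led by Cobll1 had 5 of 13 members higher (-0.02), one led by Cdc14a and Hmcn1 5 of 12 (-0.14) and one led by Col5a2 3 of 7 (-0.01). Beside these, all genes had 3044 of 5217 higher (0.06), 2338 of 3640 (0.12) and 837 of 1636 (0.01), in the same order. Leaving out the striatal-gene cluster and a cluster led by Baiap3 and Dlk1 with the inhibitory gene Slc32a1 among its leading genes, which held 57 nuclei in TAFE3_oil and 271 in TAFE4_oil, the class had 36 of 39 members higher (0.56). Of all 13209 genes counted in the nuclei left, 9612 were higher (0.12). A cluster with Ptgs2 and Igfn1 among its leading genes held 11.3% of the class in TAFE3_oil and 19.5% in TAFE4_oil. Without it 35 of 38 members were higher (0.51), beside 9805 of all 13025 genes (0.13). A small cluster with Nr4a2 among its leading genes held 1.66% in TAFE3_oil and 0.47% in TAFE4_oil. The part of these shares in the Ptgs2, Igfn1 and Nr4a2 values was not tested. In other classes the list had lower medians: 0.41 in inhibitory neurons (27 of 29 higher), 0.31 in CA2 or CA3 neurons (15 of 17) and 0.15 in granule neurons (15 of 18). In CA1 neurons 14 of 24 members were higher with a median of 0.06, not above the 61.5% and 0.09 of all genes there. Among glia, 21 of 23 members were higher in microglia (0.34) and 13 of 15 in oligodendrocytes (0.15), beside 55.9% and 58.7% of all genes. In astrocytes 9 of 15 were higher (0.21) and in oligodendrocyte precursors 5 of 9 (0.18). These shares are not above the 64.3% and 59.7% of all genes there, whose medians were 0.10 and 0.09. Without the neuron-rich and Cxcl10 clusters, 11 of 14 members were higher in microglia (0.23), beside 3498 of all 6280 genes (0.05). The part of neuronal RNA in the glial values was not tested. Inhibitory neurons had 62 of 11326 genes (0.547%) at least 2-fold higher and 7 (0.0618%) at least 2-fold lower (27 and 14 with TMM), with 73.3% higher by any size.

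**Figure D4:**
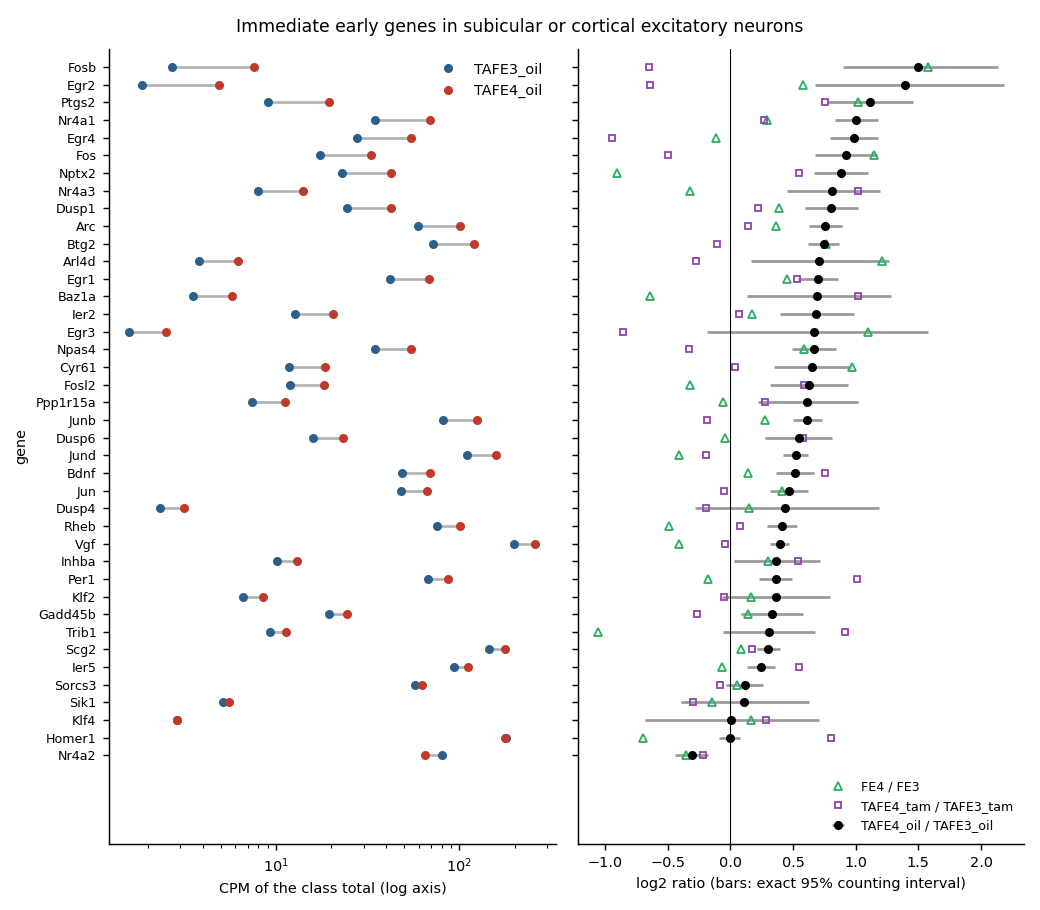
Immediate early genes counted in subicular or cortical excitatory neurons, with CPM on a log axis (left; TAFE3_oil blue, TAFE4_oil red) and log2 ratios (right; black with exact 95% counting intervals for TAFE4_oil over TAFE3_oil, green triangles for FE4 over FE3, purple squares for TAFE4_tam over TAFE3_tam). The black points lie right of 0 for 38 of 40 genes, while the green and purple points fall on both sides.

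Other named genes of these neurons differed as well. Mid1, a ubiquitin ligase, was at 9.03 CPM in TAFE3_oil and 27.3 CPM in TAFE4_oil (1.59, 1.27 to 1.93), and it was also higher in FE4 than in FE3 (1.94). In the tamoxifen pair it was nearly level, at 15.7 CPM in TAFE3_tam and 16.5 CPM in TAFE4_tam (0.07, -0.29 to 0.44). Igfn1 was at 18.8 CPM in TAFE3_oil and 42.2 CPM in TAFE4_oil (1.17, 0.94 to 1.40). Within the Rorb cluster alone Igfn1 was at 30.6 CPM in TAFE3_oil and 97.8 CPM in TAFE4_oil (1.68, 1.27 to 2.10). Low named genes were Rgs9, at 41.0 CPM in TAFE3_oil and 17.1 CPM in TAFE4_oil (-1.26, -1.48 to -1.04), the dopamine receptor Drd1a (-1.05), Cacna1d and the adhesion receptor Lphn2 (-0.60). Without the striatal-gene cluster Rgs9 was at 16.3 CPM in TAFE3_oil and 15.6 CPM in TAFE4_oil (-0.06, -0.35 to 0.23), and Drd1a had a ratio of -0.46.

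Among lists in these neurons, cholesterol synthesis had 26 of 28 members higher (median 0.26), with the early pathway enzyme Hmgcs1 at 20.4 CPM in TAFE3_oil and 33.6 CPM in TAFE4_oil (0.72, 0.49 to 0.96). The list was below 0 in both other pairs, at -0.19 without tau and -0.18 with tamoxifen. Presynaptic genes had 40 of 48 members higher (0.12) and postsynaptic genes 36 of 58 (0.06), both close to the 0.13 of all genes, and with TMM scaling the presynaptic median was -0.00. Gria2, an AMPA receptor subunit and the most abundant postsynaptic member, was at 3659 CPM in TAFE3_oil and 3416 CPM in TAFE4_oil (-0.10, -0.12 to -0.08). Tau kinases and phosphatases had 29 of 34 higher (0.21), and heat shock genes 32 of 37 (0.23), led by the chaperone Hspa8 at 406 CPM in TAFE3_oil and 529 CPM in TAFE4_oil (0.38, 0.33 to 0.44).

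The 3 hippocampal classes gave fewer counted genes. In granule neurons 28 of 8331 genes (0.336%) were at least 2-fold higher and 6 (0.072%) at least 2-fold lower (23 and 10 with TMM), with 57.4% higher by any size. Glra2, a glycine receptor subunit, was at 20.3 CPM in TAFE3_oil and 52.2 CPM in TAFE4_oil (1.36, 0.80 to 1.96), and Gnl1 (0.93), Cnst (0.94), Sepw1 (0.62) and the noncoding RNA Dancr (0.58) were higher. The NMDA receptor subunit Grin2a was at 2107 CPM in TAFE3_oil and 1571 CPM in TAFE4_oil (-0.42, -0.49 to -0.35). Fkbp5, a glucocorticoid-induced co-chaperone, was at 64.2 CPM in TAFE3_oil and 34.6 CPM in TAFE4_oil (-0.89, -1.36 to -0.43), the clock gene Per3 at 267 CPM and 176 CPM (-0.60, -0.81 to -0.39), and Zmym1 was lower by 0.64.

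In CA1 neurons 43 of 7679 genes (0.56%) were at least 2-fold higher and 14 (0.182%) at least 2-fold lower (23 and 25 with TMM), with 61.5% higher by any size. Interferon genes had 0 of 6 counted members higher and a median of -0.44. Ifit1 was the lowest named gene of the class, at 56.6 CPM in TAFE3_oil and 16.6 CPM in TAFE4_oil (-1.77, -2.51 to -1.08), from 113 and 21 UMIs. In FE3 and FE4 it was at 2.47 CPM and 1.56 CPM, and in the tamoxifen pair it ran the other way, at 33.5 CPM in TAFE3_tam and 87.7 CPM in TAFE4_tam. Stat2 was at 46.6 CPM in TAFE3_oil and 28.5 CPM in TAFE4_oil (-0.71, -1.30 to -0.14). The same genes were lower in microglia, and their upstream sequences are given because interferon acts through a short repeated element, searched here as GAAA, any 2 bases and GAAA on both strands. Again these are the 250 bases before each start in RefSeq (GRCm38.p6), for Ifit1 at chr19:34640639-34640888 (+ strand) and for Stat2 at chr10:128270248-128270497 (+ strand), with capitals on the element in its reverse orientation.
Ifit1: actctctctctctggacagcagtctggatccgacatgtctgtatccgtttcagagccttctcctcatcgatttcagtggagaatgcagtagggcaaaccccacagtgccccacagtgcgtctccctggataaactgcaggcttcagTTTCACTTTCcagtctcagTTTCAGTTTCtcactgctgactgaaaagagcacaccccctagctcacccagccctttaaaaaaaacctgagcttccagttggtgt
Stat2: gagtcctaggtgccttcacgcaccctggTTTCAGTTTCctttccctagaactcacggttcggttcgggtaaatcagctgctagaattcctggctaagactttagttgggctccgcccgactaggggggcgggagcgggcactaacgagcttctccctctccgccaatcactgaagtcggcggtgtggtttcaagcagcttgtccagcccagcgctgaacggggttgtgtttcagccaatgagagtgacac
The element was found in 28 of 49 matched promoters of the 64 listed interferon genes (57.1%), against 3.49% of all RefSeq promoters, in the same windows of 300 bases.

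Elsewhere in CA1 neurons, Napb, a factor of synaptic vesicle fusion, was at 87.6 CPM in TAFE3_oil and 181 CPM in TAFE4_oil (1.05, 0.76 to 1.34). Tle1 (0.76), Bccip (1.01), Plxnd1 (0.97) and Enc1 (0.75) were the other highest. The phosphodiesterase Pde10a was at 644 CPM in TAFE3_oil and 364 CPM in TAFE4_oil (-0.83, -0.98 to -0.67), the kinase Prkca at 418 CPM and 269 CPM (-0.64, -0.82 to -0.45), and Sik2 had a ratio of -1.0. In CA2 or CA3 neurons 46 of 6540 genes (0.703%) were at least 2-fold higher and 7 (0.107%) at least 2-fold lower (30 and 18 with TMM), with 65.4% higher by any size. Their highest named genes were Mir22hg, at 41.4 CPM in TAFE3_oil and 84.8 CPM in TAFE4_oil (1.03, 0.58 to 1.5), Hn1 (0.94), Bdnf, at 56.9 CPM and 93.8 CPM (0.72, 0.31 to 1.13), Ntsr2 (0.74) and Cdc40 (0.66). Prkca (-0.54), Cpne7 (-0.48), Khdrbs3 (-0.63) and Traip (-0.80) were lower.

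The 2 neuropeptide genes among the lowest named genes of inhibitory neurons were Sst and Npy. Sst, the peptide that defines somatostatin interneurons, was at 775 CPM in TAFE3_oil and 577 CPM in TAFE4_oil (-0.43, -0.50 to -0.35), with ratios of -0.42 without tau and -0.40 with tamoxifen. Neuropeptide Y, Npy, was at 495 CPM in TAFE3_oil and 315 CPM in TAFE4_oil (-0.65, -0.75 to -0.56). In a cluster led by Kit and Ndnf, with 88 nuclei in TAFE3_oil and 171 in TAFE4_oil, Npy was at 1696 CPM and 736 CPM (-1.20, -1.41 to -1.0). In the cluster led by Unc13c and Sst, with 171 nuclei in TAFE3_oil and 272 in TAFE4_oil, Npy was at 806 CPM and 568 CPM (-0.50, -0.70 to -0.31). The remaining clusters with 100 or more Npy UMIs ranged from -0.72 to 0.53, and Sst was at 0.61 within Vip or Lamp5 interneurons. Other peptide genes, chosen after their values were seen, ran in both directions. Vip was at 528 CPM in TAFE3_oil and 697 CPM in TAFE4_oil (0.40, 0.32 to 0.48), Crh had a ratio of 0.37, Tac2 of 0.27, Tac1 of 0.25, Cck of 0.02 and Penk of -0.15. The other low genes were Ntm (-0.41) and Col25a1 (-0.47). The highest named genes were Baiap3, at 18.1 CPM in TAFE3_oil and 36.3 CPM in TAFE4_oil (1.01, 0.60 to 1.43), Armcx2 (1.07), Arid5a (1.04), Nrbf2 (1.03) and Camk2n2, an inhibitor of the kinase CaMKII, at 95.6 CPM and 149 CPM (0.64, 0.46 to 0.82).

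Cacna1d, which encodes the L-type calcium channel Cav1.3 and lies on the minus strand at chr14:30039939-30491455 (mm10), was lower in TAFE4_oil in all 9 classes. In inhibitory neurons it was at 276 CPM in TAFE3_oil and 116 CPM in TAFE4_oil (-1.25, -1.40 to -1.11). In subicular or cortical excitatory neurons it was at 253 CPM in TAFE3_oil and 140 CPM in TAFE4_oil (-0.85, -0.94 to -0.77), and in microglia at 271 CPM and 146 CPM (-0.90, -1.15 to -0.64). The smallest ratios were -0.47 in astrocytes and -0.50 in oligodendrocyte precursors, whose intervals include 0. Over all nuclei the 6 libraries had 108 CPM in FE3, 107 CPM in FE4, 229 CPM in TAFE3_oil, 124 CPM in TAFE4_oil, 169 CPM in TAFE3_tam and 121 CPM in TAFE4_tam. TAFE3_oil is thus the highest of the 6, and TAFE4_oil lies near the libraries without tau. The gene was lower within each inhibitory cluster examined (-0.75 to -1.86) and within each subicular or cortical cluster examined (-0.20 to -1.47).

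A rule chosen after the values were seen, at least 1.5-fold the same way in at least 7 of the 9 classes, picked 1 higher gene of 5699 genes counted in 7 classes (0.0175%), Apoe, and 2 lower genes (0.0351%), Cacna1d and Ttr. By 2-fold in at least 4 classes, the only gene of 7604 was Ttr (0.0132%). Ttr, the choroid plexus transcript for transthyretin, was at 1790 CPM in TAFE3_oil and 119 CPM in TAFE4_oil over all nuclei, beside the 110 and 13 choroid plexus nuclei named above, and it was lower in all 9 classes by 2.96 to 3.64.

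Genes for the cell's energy and protein supply were shifted upward in TAFE4_oil in every main class. Nuclear oxidative phosphorylation genes had medians of 0.12 in microglia to 0.34 in subicular or cortical excitatory neurons (72 of 73 members higher there). Ribosomal protein genes had medians of 0.08 to 0.32, and mitochondrially encoded genes of 0.08 to 0.50. Heat shock genes had medians of 0.11 to 0.28. All genes were shifted upward too, with medians of 0.04 in microglia to 0.13 in subicular or cortical excitatory and in inhibitory neurons. In subicular or cortical excitatory neurons 74.4% of all genes were higher. Beside these, the median mitochondrial share per nucleus used was 1.49% in TAFE3_oil and 1.86% in TAFE4_oil, and its part in these lists was not tested. TMM scaling shifted the log2 ratios by -0.10 in astrocytes, -0.12 in CA2 or CA3 neurons and -0.13 in subicular or cortical excitatory and in inhibitory neurons, and by less in the other classes. In both pairs of other libraries the oxidative phosphorylation, ribosomal protein and mitochondrially encoded medians were below 0 in all 9 classes. The median mitochondrial share per nucleus used also ran the other way there. It was 2.34% in FE3 and 0.55% in FE4, and 2.03% in TAFE3_tam and 0.58% in TAFE4_tam. Its part in the values of those pairs was not tested.

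**Figure D5:**
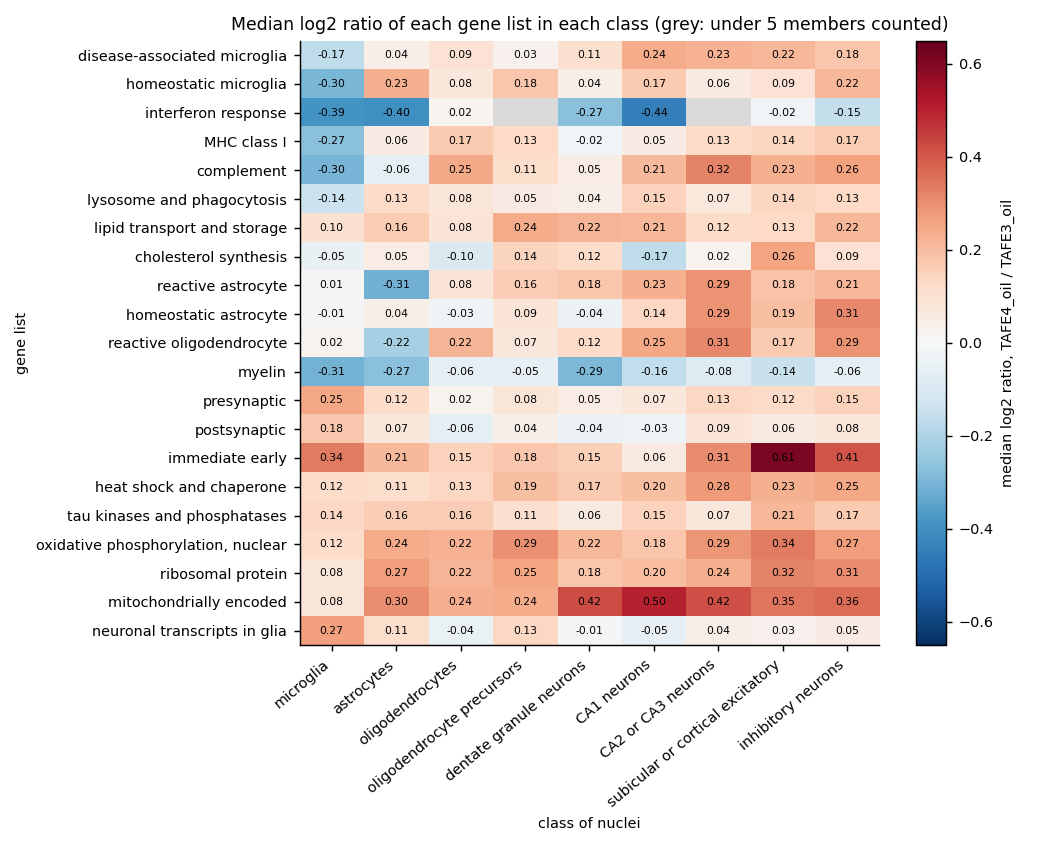
Median log2 ratio of TAFE4_oil over TAFE3_oil for 21 gene lists (rows) in the 9 main classes (columns), red above 0 and blue below, grey where under 5 members were counted. Homeostatic and interferon genes are blue in microglia (-0.30 and -0.39), immediate early genes are deepest red in subicular or cortical excitatory neurons (0.61), and the oxidative phosphorylation row is red throughout.

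Gene by gene, the ratios of the oil pair were weakly or negatively correlated with those of each of the other pairs. Over genes with at least 200 UMIs in both comparisons, Pearson's r with FE4 against FE3 was -0.28 to -0.07 by class, from 468 to 6161 genes. With the tamoxifen pair r was -0.35 to 0.01, from 470 to 8870 genes. With at least 1000 UMIs r was -0.68 to 0.03 against the pair without tau, from 31 to 1106 genes, and -0.55 to -0.10 against the tamoxifen pair, from 33 to 2729 genes. The lowest of both ranges was that of oligodendrocyte precursors, which had the fewest genes. These are descriptions across genes, which are not independent replicates, of pairs with no library in common.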

How the data were processed

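Single-nucleus RNA sequencing was done on 6 libraries of brain nuclei, 1 per group. The deposited values are counts of UMIs per gene and barcode that, per the file headers, the authors obtained from Cell Ranger (version 3.1.0). The submitters' processing notes name mm10 and Seurat without saying what each did. Per the labels' protocols, nuclei from the left hemisphere were cleaned over sucrose and sequenced on 10x Chromium; the text speaks of 3' ends but names 5' kits, and use of strand in counting is not given, so overlapping genes are uncertain.

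From the deposited counts, nuclei with at least 500 UMIs, 300 genes and at most 5% mitochondrial UMIs were kept. Doublets were scored per library with Scrublet in scanpy 1.11.5. In TAFE3_oil its own threshold marked under 0.5% of nuclei, so the top expected share (9.30%) was removed instead, 1082 nuclei, against 703 in TAFE4_oil by its own threshold. The 6 libraries were clustered together (2000 variable genes, 30 components, 15 neighbours, leidenalg 0.10.2 at resolution 1) and clusters were named from marker lists. Of 29 clusters, 9 stayed unnamed. Classes were subclustered at resolution 0.5.

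UMIs were summed per class and library. Ratios carry exact conditional binomial intervals, with a floor of 3 UMIs, and shares exact Clopper-Pearson intervals, both at 95%. They cover counting error only. With 1 library per group no test was made and no p-value given. The arithmetic was checked on simulated data. The members and gene lists were chosen with earlier results of these data known.

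Named genes were the 5 highest and 5 lowest of each class by the interval bound nearer 0, with at least 100 UMIs, 20 CPM in the higher library and a class level at or above that of other nuclei, leaving out mitochondrial, ribosomal, haemoglobin, Xist and Y-linked genes, unnamed gene models and markers of other classes; of each list, the members with most UMIs and those past 2-fold. The 1.5-fold rule over 7 classes was chosen after values were seen, as were members given for contrast. Alternatives were other mitochondrial, UMI and count limits, doublets kept, another resolution, the 2 libraries clustered alone and TMM scaling (edgeR 4.0.16). Promoter sequences are from RefSeq (GRCm38.p6). Some named genes are not reported here.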

Additional observations from a re-analysis of the deposited data

Results flagged for a closer look

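Of 90 named values, 11 lay at least 1.5-fold one way in TAFE4_oil against TAFE3_oil and at least 1.5-fold the other way in FE4 against FE3, with both counting intervals clear of 0. In log2 ratios, Apoe was at 0.76 in the oil pair and -0.65 in the pair without tau in microglia, at 0.79 and -0.64 in oligodendrocytes and at 0.77 and -0.67 in oligodendrocyte precursors. The others were Hes5 in astrocytes (0.84 and -0.64), Fbxo2 (1.04 and -0.99) and Itpk1 (-0.89 and 0.68) in oligodendrocytes, Timp2 (1.30 and -1.26), Atp5k (1.01 and -0.65) and Cox7b (0.94 and -1.04) in oligodendrocyte precursors, Sepw1 in granule neurons (0.62 and -0.99) and Baiap3 in inhibitory neurons (1.01 and -0.68).

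Against TAFE4_tam over TAFE3_tam there were 10 such values. They were Ccl12 in microglia (-1.19 in the oil pair and 1.20 with tamoxifen), Dner in astrocytes (0.87 and -0.77), Itpk1 in oligodendrocytes (-0.89 and 1.18), Atp5k (1.01 and -0.76) and Cox7b (0.94 and -0.74) in oligodendrocyte precursors, and Glra2 in granule neurons (1.36 and -0.81). Ifit1 in CA1 neurons was at -1.77 and 1.39, Traip in CA2 or CA3 neurons at -0.80 and 0.63, Egr4 in subicular or cortical excitatory neurons at 0.99 and -0.95 and Baiap3 in inhibitory neurons at 1.01 and -0.70. With 1 library per group, none of these differences between pairs was tested.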

How the results depend on the processing

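No paired analysis was possible because each group had 1 library. Of 750 values for 90 named genes under the alternatives, 745 kept their direction. The genes were picked from these same counts for intervals far from 0, so a kept direction is not independent support. With at most 1% mitochondrial UMIs Commd3 in astrocytes was at -0.19, Etnppl there at 0.52, Anln in oligodendrocytes at 0.14 and Nsg2 in oligodendrocyte precursors at -0.20, and Sst was at 0.61 within Vip or Lamp5 interneurons, a setting chosen after seeing the data.

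Shares and lists moved as follows. The astrocyte share ratio was -0.0013 with no mitochondrial limit and -1.38 at 1%, where the oligodendrocyte ratio was -0.73 and the reactive and homeostatic astrocyte medians were -1.99 and -0.40. With at least 1000 UMIs the share ratios were 0.73 for microglia, 0.20 for oligodendrocytes and 0.20 for subicular or cortical neurons. With the 2 libraries clustered alone the CA1 ratio was -0.63, and CA2 or CA3 neurons gave no value. The presynaptic median was -0.0045 with TMM.

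Counts of genes past 2-fold depended on the UMI minimum. At 20 UMIs the counts higher and lower were 258 and 112 in microglia, 266 and 117 in astrocytes, 238 and 103 in oligodendrocytes, 260 and 106 in precursors, 161 and 87 in granule, 203 and 111 in CA1, 263 and 92 in CA2 or CA3, 233 and 107 in subicular or cortical and 242 and 56 in inhibitory neurons. At 200 UMIs they were 0 and 3, 0 and 1, 0 and 1, 0 and 1, 0 and 1, 1 and 2, 0 and 2, 9 and 11, and 2 and 2, in the same order. With TMM they were 14 and 26 in astrocytes, 23 and 25 in CA1, 30 and 18 in CA2 or CA3, 39 and 47 in subicular or cortical and 27 and 14 in inhibitory neurons, with 10 lower in precursors and 10 in granule neurons. At 1% mitochondrial UMIs the counts higher were 15 in microglia, 14 in astrocytes, 5 in oligodendrocytes, 4 in precursors, 24 in CA1, 23 in CA2 or CA3, 43 in subicular or cortical and 29 in inhibitory neurons, and the counts lower 23 in astrocytes, 25 in granule, 41 in CA1 and 23 in CA2 or CA3 neurons. Without a limit, 8 genes were lower in precursors. With doublets kept, 12 were lower in microglia, 45 higher in astrocytes, 17 lower in oligodendrocytes and 42 higher in precursors. With the top expected share of doublets removed from every library, chosen after seeing the data, 36 were higher in microglia and 16 in precursors. At resolution 0.5, 11 were lower in CA2 or CA3 neurons, and with the 2 libraries clustered alone 18 were lower in subicular or cortical neurons. The cause of these shifts was not tested, apart from the UMI minimum, which sets how many genes are counted.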
